A study of Mus musculus with 8 samples.

Results

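Osgin1, Chn2, Maf, Litaf, Lgals3, Fgl2, Casp1 and Osbpl3 are 8 of the 32285 genes counted in this single-cell study of mouse bone marrow T cells. They were chosen by name on measured values, because their levels were high in the expanded, Pdcd1- and Lag3-bearing Cd8 cells of leukemia-model mice. Their levels in Cd8 cells are therefore given as a description with no test. The tests below ask whether the same genes differed between groups outside the Cd8 gate. They cover Cd4 cells with and without Foxp3, and T cells without a count of Cd4, Cd8a or Cd8b1. Such co-receptor-negative gates may hold Cd4 or Cd8 cells whose co-receptor RNA was not captured, and their part was not tested. Cells with Kit and Cd34 are described, and the 8 genes are then followed from cell to cell and from clonotype to clonotype.

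The Runx1::Runx1t1 group consisted of C57BL/6 mice of genotype Runx1 Runx1t1/+; Mx1-Cre, in which Cre recombinase turns on the leukemia fusion gene. The control group is labelled WT, and the study's methods give it as Runx1 Runx1t1/+ littermates without Mx1-Cre, so both groups carried the fusion allele. All mice received 4 injections of 5 mg/kg Poly(I:C) and were killed 4 weeks after induction, and each group had 2 pools of 2 mice. The Mx1 promoter is interferon-inducible and not restricted to 1 lineage, and live mCherry- CD3+ cells were sorted, so T cells that themselves carried the active fusion reporter were left out of the sort. An age is not given in the sources used here.

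Osgin1 encodes an oxidative stress-induced growth inhibitor and is a known target of the stress sensor Nrf2. Casp1 is the inflammasome protease that matures interleukin-1 beta and interleukin-18. Chn2 encodes beta2-chimaerin, which binds diacylglycerol and switches off the GTPase Rac. Maf encodes c-Maf, a bZIP transcription factor used by T follicular helper, Th2, Th17 and interleukin-10-producing T cells. Litaf is an endolysosomal membrane protein linked to tumor necrosis factor, and Osbpl3 is a lipid-transfer protein of the oxysterol-binding family. The secreted members are Lgals3 (galectin-3, a glycan-binding lectin abundant in macrophages) and Fgl2 (fibrinogen-like 2, an effector of regulatory T cells that binds an inhibitory Fc receptor).

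The 8 genes lie apart from each other except for 2 chromosomes that hold a pair each. On GRCm38, Osgin1 is at chr8:119434124-119446256 on the plus strand and Maf at chr8:115682942-115707794 on the minus strand. Chn2 (chr6:54039554-54301810, plus) and Osbpl3 (chr6:50293330-50456201, minus) share chromosome 6. Litaf is at chr16:10959275-11066157 (minus), Lgals3 at chr14:47367751-47386160 (plus), Fgl2 at chr5:21372642-21378374 (plus) and Casp1 at chr9:5298517-5307265 (plus). The annotation lists each as a protein-coding gene.

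After filters, 52711 cells were kept, from 12759 to 13768 per pool, with a median of 6239 to 6368 UMIs per cell before filtering. A UMI is a unique molecular identifier, 1 per captured RNA molecule. Over all kept cells the 8 genes had from 9127 (Casp1) to 28944 UMIs (Lgals3). Levels are given as UMIs per 1000000 (CPM) of the summed cells of a gate in a pool. Such a sum does not tell more positive cells from more RNA per cell. Gates used UMIs of lineage genes only. The 5 T cell markers summed to 2778 to 4350 CPM in every Cd8, Cd4 and co-receptor-negative gate, and Cd8a and Cd8b1 were at 0 by construction outside the Cd8 gate. The 4 pools shared 256 to 306 barcodes per pair of libraries, and 0 of the shared barcodes with a receptor in both had the same clonotype.

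In Cd8 cells the levels that led to the choice of the genes differed greatly between the fusion pools. Osgin1 stood at 12.3 and 100.9 CPM in Runx1::Runx1t1 pools 1 and 2, and at 3.0 and 3.9 CPM in control pools 1 and 2. In Cd8 cells with Pdcd1 and Lag3 UMIs (411 and 1908 fusion cells, 37 and 29 control cells) Osgin1 reached 131 and 340 CPM in the fusion pools and 23.8 and 40.8 CPM in the controls. In Cd8 cells with neither it was 4.0 and 6.2 CPM against 2.6 and 3.4 CPM. A single clonotype of 1086 cells in fusion pool 2 held 62.7% of that pool's Cd8 Osgin1 UMIs, and without it the Cd8 level of the pool was 42.3 CPM.

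The other members were likewise higher in Pdcd1+ Lag3+ Cd8 cells of the fusion pools than in all Cd8 cells of those pools, by differing amounts. Litaf was at 145 and 196 CPM in the former and 29.4 and 70.6 CPM in the latter, against 16.4 and 16.3 CPM in all control Cd8 cells. Fgl2 stood at 92.4 and 138 CPM, Casp1 at 77.6 and 82.4 CPM and Osbpl3 at 90.1 and 101 CPM in the fusion Pdcd1+ Lag3+ cells. In all fusion Cd8 cells they were at 18.2 and 53.8, 17.2 and 32.6, and 21.7 and 38.5 CPM. Lgals3 was at 187 and 143 CPM in the fusion and 88.4 and 380 CPM in the control Pdcd1+ Lag3+ cells, so that its groups overlapped there.

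**Figure D1:**
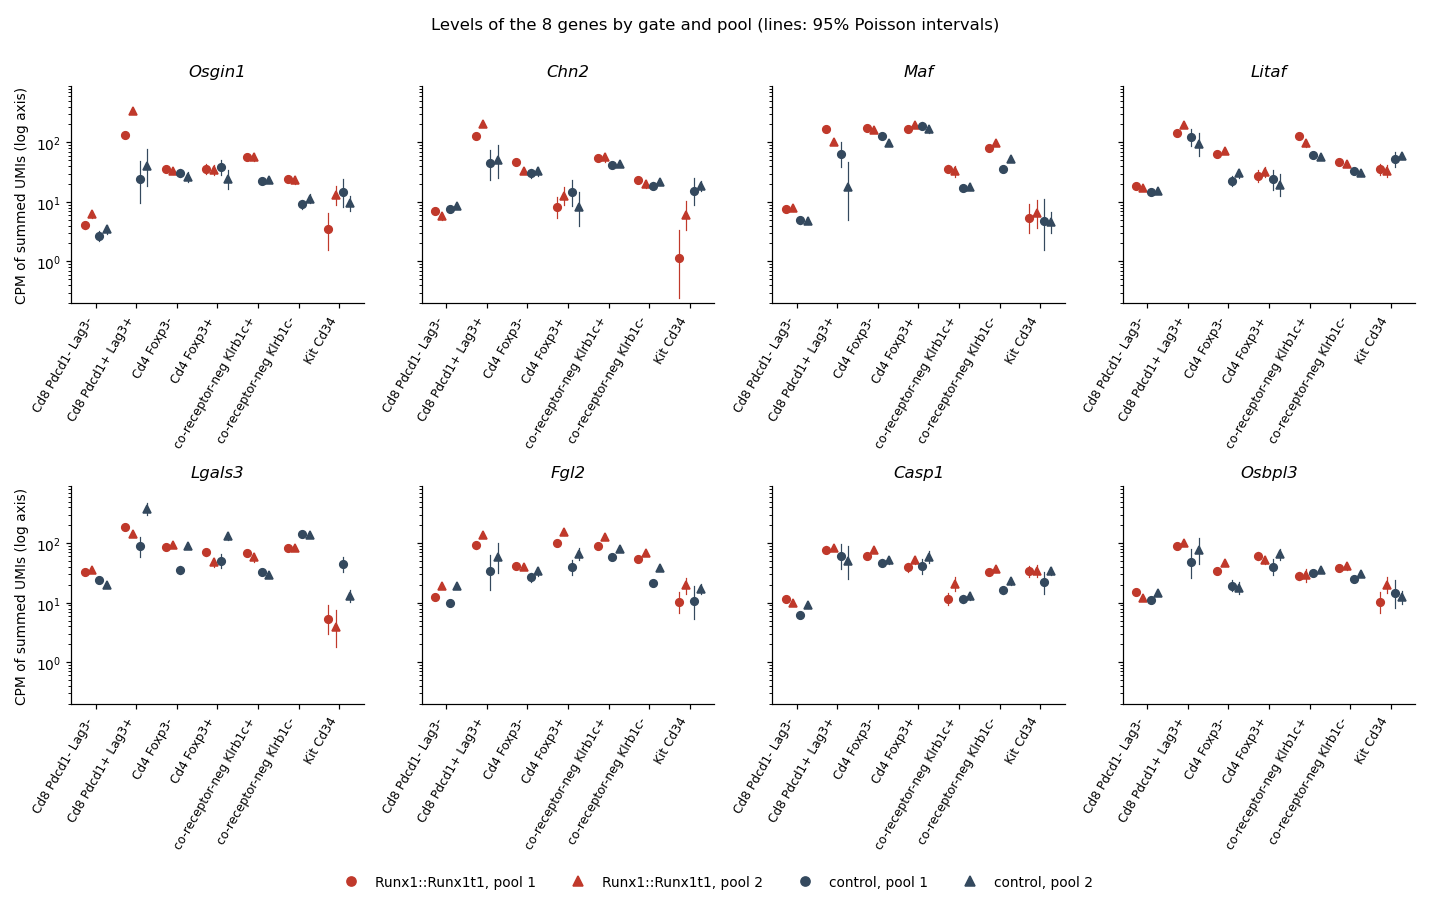
Level of each gene (CPM of summed UMIs, log axis) in 7 gates, with 1 point per pool (red, Runx1::Runx1t1; dark, control) and 95% Poisson intervals of counting error. Osgin1 runs from 2.6 CPM in control Cd8 cells without Pdcd1 and Lag3 to 340 CPM in the Pdcd1+ Lag3+ cells of fusion pool 2, whereas Maf lies between 99.4 and 197 CPM in all Cd4 sums.

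The group comparison outside the Cd8 gate used edgeR's quasi-likelihood test on summed UMIs of 2 pools against 2. The p-values were adjusted over all genes tested by the Benjamini-Hochberg method. A gene is called, and said to rise or fall, at an adjusted p under 0.05, and SE is the standard error of the log2 fold change. All 8 genes passed the filter on low counts in each edgeR comparison reported. The p-values measure the spread between 2 pools of mice per group.

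In Cd4 cells without Foxp3, 3 of the 8 genes rose in the Runx1::Runx1t1 group (Maf, Litaf, Osbpl3) and 0 fell, where 1.8% of 11180 genes rose and 1.1% fell. In Cd4 cells with Foxp3, 0 of 8 were called, where 0.107% of 9351 genes rose and 0% fell by edgeR. At an unadjusted p under 0.05 that comparison held 1029 genes, and DESeq2 called 68. In co-receptor-negative cells with Klrb1c, the gene of the NK1.1 receptor, 4 of 8 rose (Osgin1, Maf, Litaf, Lgals3) and 0 fell, where 1.93% of genes rose and 0.836% fell. In co-receptor-negative cells without Klrb1c, 4 of 8 rose (Osgin1, Maf, Litaf, Casp1) and 1 fell (Lgals3), where 4.66% rose and 3.48% fell. Without the cells of that gate that had at least 5 UMIs over the myeloid genes Lyz2, S100a8, S100a9 and Csf1r, a setting added after seeing the data, 5 rose (Osgin1, Maf, Litaf, Fgl2, Casp1) and 0 fell, where 4.7% of 11617 genes rose and 2.79% fell. The median log2 fold change of the 8 genes in these 4 gates was 0.54, 0.10, 0.72 and 0.61, beside -0.01 over all genes in each. Maf and Litaf were called in the same 3 gates, and Chn2 in none of the 4.

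**Figure D2:**
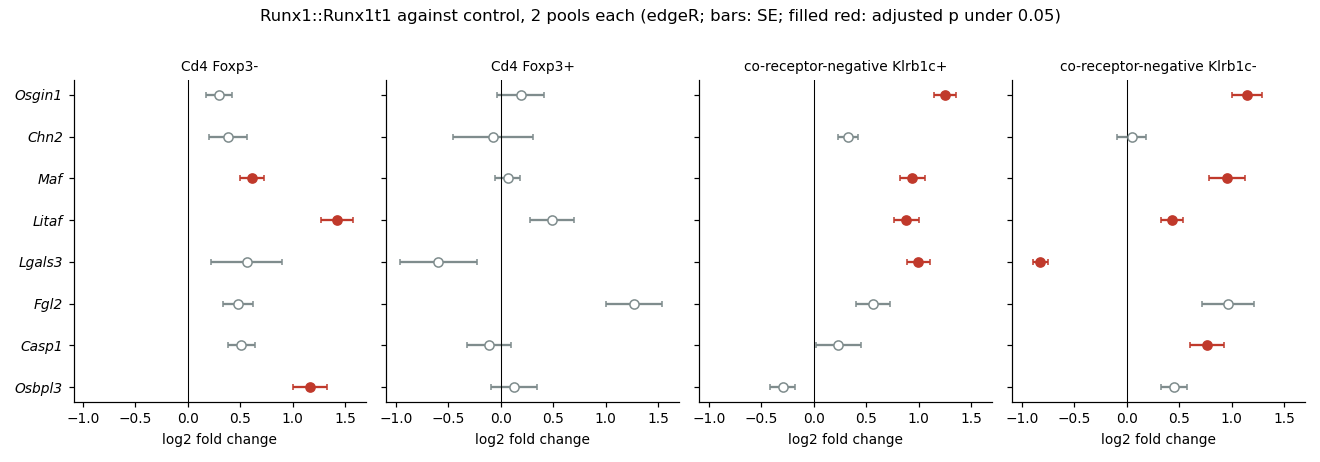
Log2 fold change of the Runx1::Runx1t1 group against control (x axis) for the 8 genes in 4 gates other than the Cd8 gate. Bars show the SE, and points are filled red where the adjusted p was under 0.05. Litaf and Osbpl3 in Cd4 Foxp3- cells (1.42 and 1.16) and Osgin1 in both co-receptor-negative gates (1.25 and 1.15) lie farthest right among the called genes, and Lgals3 changes side between the co-receptor-negative gates.

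Osgin1 was not confined to Cd8 cells. In Cd4 Foxp3- cells it was at 35.4 and 32.9 CPM in the fusion pools and 30.8 and 26.3 CPM in the controls. The pools did not overlap, but the log2 fold change of 0.30 (SE 0.12) had an edgeR adjusted p of 0.227. In Cd4 Foxp3+ cells the levels were 35.8 and 34.2 CPM against 38.4 and 24.3 CPM, and the groups overlapped. Co-receptor-negative Klrb1c+ cells had 56.3 and 57.1 CPM in the fusion pools and 22.6 and 23.5 CPM in the controls, a rise of 1.25 on the log2 scale (SE 0.10, edgeR adjusted p = 1.75e-04). Klrb1c- cells had 24.2 and 23.2 CPM against 9.12 and 11.4 CPM, a rise of 1.15 (SE 0.14, adjusted p = 0.00441). Within a group the paired values of these co-receptor-negative gates lay close together, and the groups were far apart. In the control pools the Cd4 and Klrb1c+ levels were thus several times the level of all Cd8 cells (3.0 and 3.9 CPM).

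The Osgin1 promoter is shown because the gene is known as an Nrf2 target and because Maf, another of the 8 genes, encodes a factor of the bZIP class. RefSeq promoter windows of 250 bases before the start (GRCm38.p6) were found for 7 of the 8 genes, 10 windows in all. The Osgin1 window lies at chr8:119436897-119437146 on the plus strand and the Fgl2 window at chr5:21372423-21372672 on the plus strand. Capitals mark TGANTCA (the AP-1 site) and TGCTGA (one side of the palindromic Maf recognition element), searched on both strands.
Osgin1: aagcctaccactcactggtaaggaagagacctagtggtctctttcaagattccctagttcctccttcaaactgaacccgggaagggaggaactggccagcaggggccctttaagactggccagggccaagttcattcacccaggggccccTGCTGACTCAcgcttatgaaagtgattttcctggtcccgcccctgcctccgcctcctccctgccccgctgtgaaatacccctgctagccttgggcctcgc
Fgl2: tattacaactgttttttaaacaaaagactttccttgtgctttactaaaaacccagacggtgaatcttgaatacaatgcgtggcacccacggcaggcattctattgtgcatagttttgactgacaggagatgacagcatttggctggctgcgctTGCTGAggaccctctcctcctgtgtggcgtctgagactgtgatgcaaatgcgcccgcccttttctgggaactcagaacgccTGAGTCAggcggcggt

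In the Osgin1 window the 2 motifs overlap, TGCTGA beginning 100 bases and TGANTCA 97 bases before the start. The 2 motifs joined in this way, sharing the letters TGA and searched after the Osgin1 sequence had been seen, occur in 0.353% of 32851 promoter windows of the same length. In the Fgl2 window the motifs are apart, at 97 and 16 bases before the start. TGANTCA occurs in 6.75% of all windows and TGCTGA in 16.1%. One of the Chn2 windows (chr6:54272572-54272821) held TGCTGA, and the windows of Litaf, Lgals3, Casp1 and Osbpl3 held neither motif. The word TGACNNNGC for the antioxidant response element (10.2% of all windows) and the RUNX word TGTGGT (14.0%) occurred in no window of the 7 genes. Only these exact words were searched for these sites, so their absence does not show that the windows lack other forms. A match describes the letters only, and binding was not measured.

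Chn2 separated the cell types more than the groups. Its levels in Cd4 Foxp3- cells were 46.4 and 33.2 CPM in the fusion pools and 30.2 and 32.7 CPM in the controls, a log2 fold change of 0.38 (SE 0.18, edgeR adjusted p = 0.292). In Cd4 Foxp3+ cells it was at 8.32 and 12.8 CPM against 14.5 and 8.09 CPM. Every Foxp3+ sum was below every Foxp3- sum. Within pools Chn2 was lower in Foxp3+ than in Foxp3- cells in 4 of 4 pools and fell by 1.82 on the log2 scale (SE 0.20, adjusted p = 1.16e-04). Klrb1c+ cells had 54.4 and 55.9 CPM against 42.0 and 43.4 CPM, with an adjusted p of 0.111 for the group difference of 0.32. Klrb1c- cells had 23.4 and 20.01 CPM against 18.7 and 21.7 CPM, so that the groups overlapped. In Cd8 cells Chn2 was at 15.2 and 60.1 CPM against 8.4 and 9.2 CPM, and in the Pdcd1+ Lag3+ cells at 129 and 202 CPM against 44.2 and 49.8 CPM.

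Maf was first a Cd4 gene in these data. Its fusion levels in Cd4 Foxp3- cells, 173 and 164 CPM, were above the 128 and 99.4 CPM of the controls, a rise of 0.61 (SE 0.11, edgeR adjusted p = 0.0339). That call was lost without control pool 2 (0.48, adjusted p = 0.0615), with 1 cell per clonotype (adjusted p = 0.0506) and with stricter gates (adjusted p = 0.0612). In Foxp3+ cells the 171 and 197 CPM of the fusion pools and the 192 and 166 CPM of the controls overlapped, with a log2 fold change of 0.07 (adjusted p = 0.895). The difference of the group effects, -0.53 in Foxp3+ relative to Foxp3- cells, did not pass the interaction test (adjusted p = 0.0540). The co-receptor-negative cells with Klrb1c had 36.1 and 32.8 CPM against 17.2 and 18.05 CPM, a rise of 0.94 (SE 0.12, adjusted p = 0.00162). Those without Klrb1c had 81.9 and 97.8 CPM against 35.8 and 52.5 CPM, a rise of 0.95 (SE 0.17, adjusted p = 0.0166). All Cd8 cells had 20.1 and 34.9 CPM against 6.2 and 5.5 CPM, below every Cd4 sum. The Pdcd1+ Lag3+ Cd8 cells had 170 and 99.7 CPM in the fusion pools, with the higher value in pool 1, the opposite order to Osgin1 and Chn2.

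Litaf rose in all 3 gates in which Maf rose. In Cd4 Foxp3- cells it was at 65.0 and 72.6 CPM in the fusion pools and 22.4 and 30.6 CPM in the controls, a rise of 1.42 (SE 0.15, edgeR adjusted p = 0.00591) and the largest log2 fold change of the 8 genes in that gate. In Foxp3+ cells the levels were 27.5 and 32.1 CPM against 23.9 and 19.4 CPM, which did not overlap, and the difference of 0.48 was not called (adjusted p = 0.453). Klrb1c+ cells had 126 and 96.3 CPM against 62.3 and 56.2 CPM, a rise of 0.88 (SE 0.12, adjusted p = 0.00219). The smallest rise, 0.43 (SE 0.10, adjusted p = 0.0436), was that of Klrb1c- cells, at 47.2 and 42.8 CPM against 33.7 and 30.1 CPM. This last call held in 5 of 10 other settings and was lost without fusion pool 1 (adjusted p = 0.142), control pool 1 (0.0626) or control pool 2 (0.116). Between Foxp3 classes of the same pool, Litaf fell by 0.99 in Foxp3+ cells (SE 0.17, adjusted p = 0.00216). It was higher in Foxp3+ cells in 1 of 4 pools, control pool 1, at 23.9 against 22.4 CPM. The call held in 9 of 10 other settings.

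Osbpl3 was called only in the Cd4 Foxp3- gate among the 4 group comparisons, at 34.7 and 45.9 CPM in the fusion pools and 19.3 and 17.6 CPM in the controls. The rise was 1.16 (SE 0.16, edgeR adjusted p = 0.0130). The Foxp3+ levels, 60.8 and 52.1 CPM against 40.1 and 64.7 CPM, overlapped between groups. Within pools Osbpl3 was higher in Foxp3+ than in Foxp3- cells in 4 of 4, a rise of 0.79 (SE 0.21, adjusted p = 0.0196). That call held in 8 of 10 other settings, and was lost without fusion pool 1 among others. In Klrb1c+ cells the fusion pools, at 27.7 and 28.8 CPM, were below the controls at 31.7 and 35.4 CPM, and the log2 fold change of -0.30 had an adjusted p of 0.243. In Klrb1c- cells the levels were 38.8 and 40.7 CPM against 24.96 and 30.7 CPM, with an adjusted p of 0.0693.

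Casp1 stood at 60.3 and 76.6 CPM against 47.4 and 51.5 CPM in Cd4 Foxp3- cells, a difference of 0.51 (SE 0.13) that did not pass (edgeR adjusted p = 0.0857). Its Foxp3+ levels of 39.7 and 52.8 CPM against 41.8 and 59.0 CPM overlapped. In Klrb1c- cells it rose from 16.4 and 22.8 CPM in the controls to 32.9 and 36.8 CPM in the fusion pools, a log2 fold change of 0.76 (SE 0.16, adjusted p = 0.0304) that was not called without control pool 1 (0.53, adjusted p = 0.0508). Klrb1c+ cells, at 11.7 and 20.8 CPM against 11.4 and 13.2 CPM, gave its lowest levels outside Cd8 cells, and their groups overlapped.

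Among Cd4 cells Fgl2 was higher with Foxp3 than without, and co-receptor-negative Klrb1c+ cells had levels in a similar range to Foxp3+ cells. Fusion Foxp3+ cells had 99.2 and 154 CPM and control Foxp3+ cells 39.2 and 66.3 CPM, against 41.5 and 40.4 CPM and 26.9 and 33.9 CPM in the Foxp3- cells of the same pools. Within pools Fgl2 was higher in Foxp3+ cells in 4 of 4 and rose by 1.28 (SE 0.17, edgeR adjusted p = 4.19e-04). The group difference in Foxp3+ cells was its largest, at 1.27 (SE 0.27), and the pools did not overlap, but the adjusted p was 0.103. In 5 of 10 other settings it was called, DESeq2 (adjusted p = 0.00499) and 3 of the 4 fits that left out a pool among them, with values from 0.93 to 1.72. Klrb1c+ cells had 88.7 and 127 CPM against 58.8 and 79.8 CPM, and Klrb1c- cells 53.6 and 69.1 CPM against 21.3 and 38.5 CPM. These differences of 0.57 and 0.96 had adjusted p of 0.106 and 0.0572. In these 3 gates the second pool was the higher one in both groups.

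Lgals3 was called in opposite directions in the whole co-receptor-negative gates, and the fall in the Klrb1c- gate was not called once cells bearing myeloid genes were left out. In Klrb1c+ cells it was at 67.6 and 58.3 CPM in the fusion pools and 33.0 and 28.9 CPM in the controls, a rise of 0.997 (SE 0.11, edgeR adjusted p = 8.15e-04). In Klrb1c- cells the fusion pools had 82.3 and 82.0 CPM and the controls 140 and 138 CPM, and Lgals3 fell by 0.82 (SE 0.07, adjusted p = 8.07e-04). The 6 neutrophil markers summed to 2.26 and 4.72 CPM in the fusion Klrb1c- cells and 2071 and 690 CPM in the controls, with Ltf at 0 in both fusion pools. The 6 monocyte and macrophage markers, all detected, summed to 69.8 and 120 CPM against 941 and 480 CPM. Cells of this gate with at least 5 UMIs over Lyz2, S100a8, S100a9 and Csf1r, which numbered 3 and 7 in the fusion pools and 68 and 36 in the controls, had 1942 and 2633 CPM of Lgals3 against 1641 and 1669 CPM. In the remaining cells of the gate Lgals3 was at 74.1 and 70.9 CPM in the fusion pools and 45.4 and 72.5 CPM in the controls, so both control values had dropped well below those of the whole gate and the groups overlapped. The log2 fold change in these remaining cells was 0.21 (SE 0.18, adjusted p = 0.560), in a setting added after seeing the data. Among Klrb1c- cells with a paired T cell receptor, also an added setting, it was 0.15 (adjusted p = 0.445). With Foxp3-bearing cells also left out it was 0.51 (adjusted p = 0.0146).

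In Cd4 cells Lgals3 varied most among the controls. Foxp3- cells had 87.4 and 93.5 CPM in the fusion pools and 35.7 and 91.0 CPM in the controls. Foxp3+ cells had 70.4 and 48.0 CPM against 50.3 and 131 CPM. The group effect was 0.56 in Foxp3- cells (SE 0.34) and -0.60 in Foxp3+ cells, neither of them called (edgeR adjusted p = 0.401 and 0.612). The interaction test of these effects was called for Lgals3 alone among the 8 genes, at -1.12 (SE 0.21, adjusted p = 0.0133), where 0.779% of 10651 genes were higher and 0.807% lower. That call was kept in 4 of 10 other settings and lost without fusion pool 2 or control pool 2. The Cd4 gates were not fitted again without cells bearing myeloid genes, so the part of such cells was not tested. The median interaction of the 8 genes was -0.56, beside 0.01 over all genes.

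The composition of the gates differed between groups. In Cd4 Foxp3- cells, cytotoxic-type cells with at least 3 UMIs over Nkg7 and Ccl5 were 67.4% and 73.0% of the fusion pools and 41.0% and 45.7% of the controls. Nkg7 is a granule protein of cytotoxic cells and Ccl5 a chemokine of effector T cells. The 5 NK receptor markers, all detected, summed to 139 and 69.4 CPM in the fusion pools and 357 and 324 CPM in the controls. The neutrophil markers summed to 4.097 and 2.17 CPM against 92.7 and 20.7 CPM, with Ltf at 0 in fusion pool 1. The part of these markers in the group differences was not tested, and the members were fitted again within the Nkg7/Ccl5 classes.

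Within the 4 pools, Nkg7/Ccl5-high Cd4 cells had more of 6 of the 8 genes than Nkg7/Ccl5-low ones (0 UMIs of both), and 0 were lower, where 7.46% of 8936 genes rose and 7.55% fell. Osgin1 was at 48.7 and 40.2 CPM in the high cells of the fusion pools and 46.9 and 45.6 CPM in those of the controls, against 4.39 and 9.98 CPM and 13.8 and 3.96 CPM in the low cells. The rise of 2.48 (SE 0.26, edgeR adjusted p = 5.04e-05) was the largest of the 8 genes, and the high cells of both groups had overlapping levels. Fgl2 rose by 2.02 (adjusted p = 3.70e-04), Litaf by 1.78 (adjusted p = 3.30e-05) and Lgals3 by 1.34 (adjusted p = 1.15e-04). Osbpl3 rose by 1.04 (adjusted p = 0.00213) and Chn2 by 0.92 (adjusted p = 0.00577). The Chn2 call held in 8 of 10 other settings, and was lost without fusion pool 1 among others. Maf (0.66, adjusted p = 0.0798) and Casp1 (0.52, adjusted p = 0.0739) were each higher in 3 of 4 pools and were not called. The exception for Maf was control pool 1, with 102 CPM in high and 140 CPM in low cells.

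**Figure D3:**
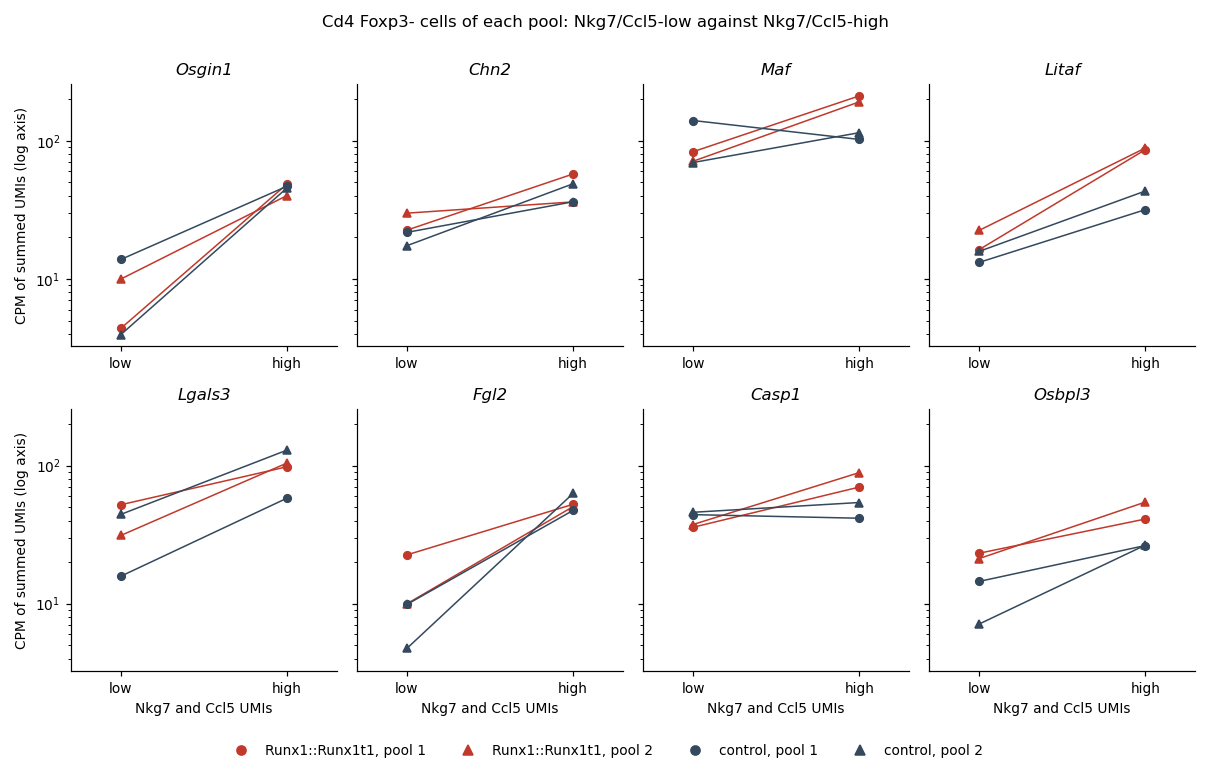
Level of each gene (CPM of summed UMIs, log axis) in Nkg7/Ccl5-low and Nkg7/Ccl5-high Cd4 Foxp3- cells, with 1 line per pool (red, Runx1::Runx1t1; dark, control). The 4 Osgin1 lines climb from 3.96 to 13.8 CPM up to 40.2 to 48.7 CPM, and 1 Maf line and 1 Casp1 line run downward.

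The group comparison was then repeated inside each class, as settings added after seeing the data. In the high cells 4 of the 8 genes rose, where 2.75% of 10465 genes rose. Maf rose by 0.91 (edgeR adjusted p = 0.00195), Litaf by 1.24 (adjusted p = 0.00147), Osbpl3 by 0.87 (adjusted p = 0.0194) and Casp1 by 0.75 (adjusted p = 0.0277). Osgin1 had a log2 fold change of -0.04 in the high cells (adjusted p = 0.914) and Fgl2 one of -0.08. In the low cells 0 of the 8 genes were called by edgeR, where 0.236% of 8479 genes rose and 0.106% fell, and Fgl2 and Osbpl3 had an unadjusted p under 0.05 (0.0103 and 0.00693). Thus Litaf was at 86.2 and 88.7 CPM in the high cells of the fusion pools and 31.7 and 43.3 CPM in those of the controls.

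The Foxp3 classes of Cd4 cells differed in 4 of the 8 genes within pools, where 11.7% of 10074 genes rose and 9.75% fell in Foxp3+ cells. Fgl2 and Osbpl3 rose, and Chn2 and Litaf fell, with the values given above. Osgin1 (0.02), Maf (0.31), Lgals3 (-0.21) and Casp1 (-0.39) were not called, with adjusted p from 0.0519 to 0.9502. The median over the 8 genes was -0.09, beside -0.01 over all genes. The 6 regulatory markers, Foxp3 among them, summed to 4874 and 4585 CPM in fusion Foxp3+ cells and 3421 and 2805 CPM in control ones.

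Co-receptor-negative cells with Klrb1c include natural killer T cells, whose invariant receptor joins TRAV11 to TRAJ18. Cells with that receptor were 27.3% and 21.3% of the Klrb1c+ gate in the fusion pools and 13.7% and 13.5% in the controls. They carried more Osgin1 than the other cells in every pool. Invariant receptor cells of both co-receptor-negative gates had 91.4 and 118 CPM of Osgin1 in the fusion pools and 75.2 and 80.7 CPM in the controls. Klrb1c+ cells with another paired receptor had 42.6 and 47.9 CPM against 16.7 and 14.96 CPM. In these other cells 4 of the 8 genes rose, where 1.34% of 10077 genes rose. Osgin1 rose by 1.45 (edgeR adjusted p = 3.56e-04), Maf by 1.25 (adjusted p = 0.00835), Lgals3 by 1.19 (adjusted p = 0.00184) and Litaf by 0.88 (adjusted p = 6.35e-04). In the invariant receptor cells, where 0.403% of 8927 genes rose, only Litaf was called among the 8, with a rise of 1.12 (edgeR adjusted p = 4.63e-04), while Osgin1 had 0.41 (adjusted p = 0.360). Whether the group effects differed between these receptor classes was not tested. Both settings were added after seeing the data.

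In cells with Trdc, the constant chain of the gamma-delta receptor, and no paired alpha-beta receptor, Osgin1 was at 23.2 and 14.5 CPM in the fusion pools and 7.64 and 10.0 CPM in the controls. In the Klrb1c- gate such cells were 11.7% and 12.2% of the fusion pools and 24.5% and 23.5% of the controls. The 6 regulatory markers of that gate summed to 1296 and 1109 CPM against 486 and 463 CPM. Within Klrb1c- cells that had a paired receptor and no Foxp3 UMI, 5 of the 8 genes rose, where 4.79% of 10359 genes rose. Osgin1 rose by 0.78 (edgeR adjusted p = 0.0212), Maf by 1.52 (adjusted p = 5.72e-04), Casp1 by 1.22 (adjusted p = 0.00489) and Litaf by 0.72 (adjusted p = 0.00443), and Lgals3 as given above. The rises of the first 4 were thus present without the cells that lacked a paired receptor or had a Foxp3 UMI, in a setting also added after seeing the data.

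Between the Klrb1c classes, 7 of the 8 genes differed within pools, where 13.3% of 11414 genes rose and 14.4% fell in Klrb1c+ cells. Osgin1 rose by 1.29 (edgeR adjusted p = 4.91e-06), Chn2 by 1.26 (adjusted p = 7.74e-06), Litaf by 1.16 (adjusted p = 2.53e-05) and Fgl2 by 1.11 (adjusted p = 5.17e-05), each in 4 of 4 pools. Maf fell by 1.25 (adjusted p = 1.34e-05), Lgals3 by 1.32 (adjusted p = 0.0116) and Casp1 by 0.81 (adjusted p = 0.00186), also in 4 of 4. The Lgals3 call held in 8 of 10 other settings, and was lost without control pool 1 (-1.01) among others. With the myeloid-gene-bearing cells left out of both classes, a setting added after seeing the data, the same 7 genes were called in the same directions, where 14% of 11276 genes rose and 13.6% fell. Lgals3 then fell by 0.88 (SE 0.24, adjusted p = 0.0187). Osbpl3 was higher in 2 of 4 pools, at 0.04 (adjusted p = 0.846). The median of the 8 was 0.57, beside -0.01 over all genes. Genes chosen together in Cd8 cells, such as Osgin1 and Maf, thus lay on both sides here.

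Kit Cd34 cells numbered 218 and 202 in the fusion pools and 59 and 328 in the controls, and are described with Poisson intervals of counting error. This gate did not require a Cd3 UMI, and 159 and 129 of the fusion and 34 and 250 of the control cells had none. The 7 progenitor markers summed to 9837 and 9678 CPM in the fusion pools and 1980 and 1454 CPM in the controls, with Ms4a2 at 0 in the controls, so the gate did not hold the same cells in both groups. Maf was low in all pools, at 5.39 and 6.52 CPM against 4.81 and 4.59 CPM. Osgin1 was at 3.47 CPM (interval 1.58 to 6.58) and 13.04 CPM (8.80 to 18.6) in the fusion pools, and 14.4 CPM (8.08 to 23.8) and 9.54 CPM (7.12 to 12.5) in the controls. Chn2 was at 1.16 CPM (0.238 to 3.38) and 6.09 CPM (3.33 to 10.2) against 15.4 CPM (8.80 to 24.996) and 18.7 CPM (15.3 to 22.7). Casp1 and Litaf were the members with levels of at least 22.1 CPM in every pool. Litaf was at 35.4 and 33.5 CPM in the fusion pools and 51.9 and 59.6 CPM in the controls. Lgals3 was at 5.39 and 3.91 CPM against 44.3 and 13.2 CPM, beside neutrophil markers that summed to 1.16 and 1.74 CPM against 671 and 14.1 CPM, and the part of these in its level was not tested.

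The pathway of each member was followed with a list of partners. Of the Nrf2 list beside Osgin1, 0 of 8 genes were called in Cd4 Foxp3- cells, 0 of 7 in Klrb1c+ cells and 1 of 8 in Klrb1c- cells, where the heme oxygenase gene Hmox1 rose by 1.38 (edgeR adjusted p = 0.0329). The list medians in these gates were -0.02, 0.07 and -0.15. Across the Nkg7/Ccl5 classes, with an Osgin1 difference of 2.48, 2 of 7 Nrf2 genes rose, namely Txnrd1 (0.99) and Hmox1 (0.88). Across the Klrb1c classes 1 of 8 rose and 5 fell, with Srxn1 at -2.19 and Hmox1 at -1.28, while Osgin1 rose. The list genes were not fitted again across these classes without the cells bearing myeloid genes, so the part of such cells was not tested.

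The Maf list, made of small Maf genes and of T cell genes linked to c-Maf, had 2 of 12 genes higher and 0 lower in Cd4 Foxp3- cells (median 0.32). They were the cytokine gene Il10 (1.33, edgeR adjusted p = 0.0368) and Prdm1, which encodes the effector regulator Blimp-1 (1.65, adjusted p = 0.00905). In Klrb1c+ cells 4 of 10 rose, including the costimulatory receptor Icos (1.18, adjusted p = 2.72e-04) and the cytokine Il4 (1.02, adjusted p = 0.00242). In Klrb1c- cells 4 of 11 rose, led by Il10 (2.76, adjusted p = 4.76e-04) and Prdm1 (1.77, adjusted p = 8.72e-04). In the 3 gates where Maf rose, 0 list genes fell. The medians of 0.34 in both co-receptor-negative gates stood beside -0.01 over all genes.

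The list of the Fgl2 family, its receptors and regulatory effectors had 3 of 9 genes higher in Cd4 Foxp3- cells, among them the checkpoint receptors Lag3 (2.19, edgeR adjusted p = 0.0276) and Tigit (1.36, adjusted p = 0.00905). In Klrb1c+ cells 2 of 8 rose, Lag3 (1.62, adjusted p = 0.00215) and Ctla4 (1.42, adjusted p = 8.38e-04). In Klrb1c- cells 6 of 9 rose, with Lag3 at 2.53 and Ctla4 at 1.84. Cells with a Foxp3 UMI were 20.8% and 16.4% of that gate in the fusion pools and 6.95% and 9.06% in the controls. Among its cells with a paired receptor and no Foxp3 UMI, 5 of 8 list genes rose, Lag3 (2.66) and Ctla4 (1.77) among them, and the Fc receptor gene Fcgr3 fell (-2.44). The list genes that rose there are checkpoint and regulatory genes, and Fgl2 itself was called in none of these gates. In Foxp3+ cells 0 of 7 were called between groups.

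The other 5 lists had few calls between groups. For the Rac and diacylglycerol list of Chn2, 0 of 10 genes were called in Cd4 Foxp3- cells, 2 of 10 rose in Klrb1c+ cells (Plcg1 0.52, Rasgrp1 0.34) and 2 of 10 in Klrb1c- cells (Tiam1 1.23, Rasgrp1 0.40). In the inflammasome list of Casp1, 0 of 7 were called in Cd4 Foxp3- cells, 0 of 6 in Klrb1c+ cells and 1 of 9 in Klrb1c- cells, the caspase-11 gene Casp4 (1.19, edgeR adjusted p = 0.00271). For the partners of Litaf (8 genes), the galectins (6 genes) and the oxysterol-binding family (10 or 11 genes), 0 were called in these 3 gates. In Cd4 Foxp3+ cells 0 genes of any of the 8 lists were called.

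The 8 genes were detected together more often than their single frequencies give in Cd8 cells of the fusion pools taken as a whole. Cells were thinned to 2000 UMIs, and the number with both genes of a pair was divided by the number given by the product of the single shares. Over the 28 pairs the median ratio was 2.80 in pool 1 (1.38 to 7.04) and 1.96 in pool 2 (1.42 to 3.10). The highest ratio in both pools was that of Osgin1 with Chn2, seen together in 36 cells where 5.11 were given in pool 1, and in 421 cells where 136 were given in pool 2. Inside the Pdcd1+ Lag3+ Cd8 cells the medians were 0.964 (0.550 to 1.68) and 1.01 (0.701 to 1.19), with 13 and 14 of 28 pairs above 1. In the largest clonotype alone (1078 cells of that depth) the median was 0.993, and 12 of 28 pairs were above 1. In Cd4 Foxp3- cells the medians were 1.34 and 1.36, and in their Nkg7/Ccl5-high part 1.13 and 1.20. Joint detection thus exceeded the single frequencies in the mixed gates and was near 1 within the Pdcd1+ Lag3+ cells and within the clonotype. The genes were chosen together for high levels in Pdcd1- and Lag3-bearing Cd8 cells, so ratios above 1 in the whole Cd8 gate follow from that choice. Cells of a pool share a library, and these ratios are a description with no test.

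**Figure D4:**
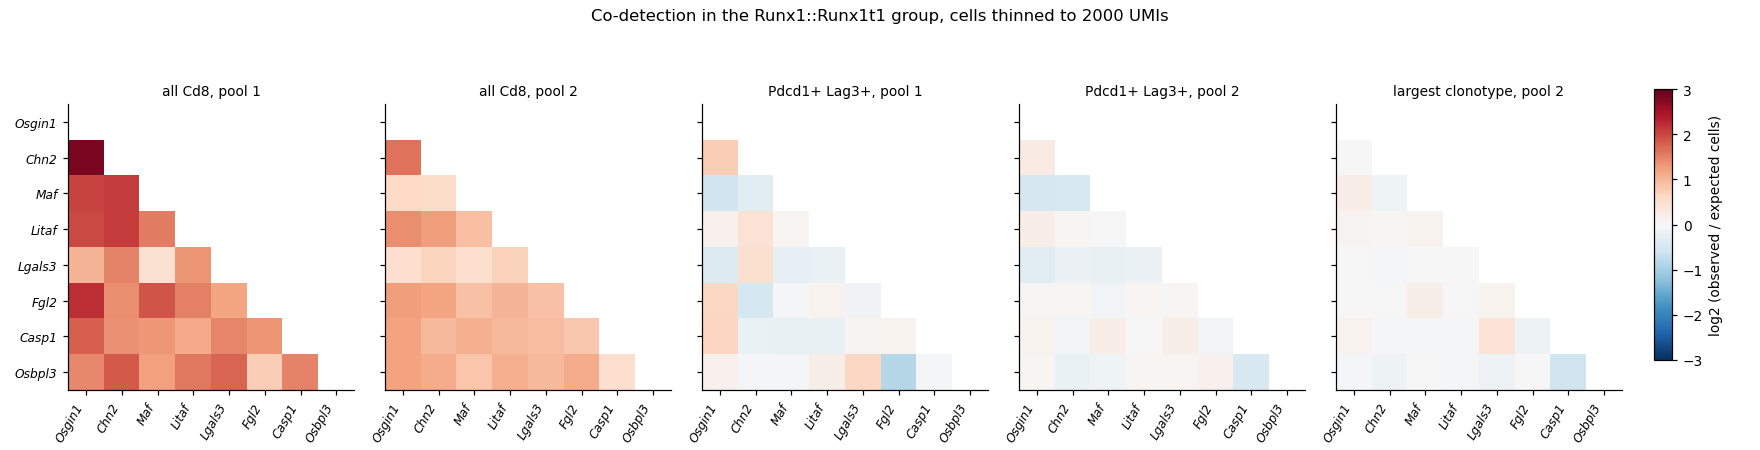
Observed over expected number of cells with both genes of a pair (log2 colour scale), for the 28 pairs in cells thinned to 2000 UMIs. The whole Cd8 gates of the fusion pools are red throughout (medians 2.80 and 1.96). The Pdcd1+ Lag3+ cells and the largest clonotype are pale and mixed (medians 0.964, 1.01 and 0.993). The genes were chosen for high levels in Pdcd1- and Lag3-bearing Cd8 cells.

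Clonotypes, defined by the CDR3 nucleotides of both receptor chains, differed in their mix of the 8 genes. Of the 28 Cd8 clonotypes with at least 20 cells, 12 were in fusion pool 1, 13 in fusion pool 2 and 3 in control pool 2. The CDR3 sequences of those that marked the extremes are printed as alpha chain and then beta chain, with the first and last codon in capitals. They identify the clonotypes named below, and the deposited receptor contigs are their source.
pool 2, largest, 1086 cells, TRAV6-6 TRAJ48: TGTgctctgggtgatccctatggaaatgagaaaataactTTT
pool 2, largest, TRBV1 TRBJ2-7: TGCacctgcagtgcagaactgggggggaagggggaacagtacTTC
pool 1, largest, 111 cells, TRAV9D-3 TRAJ12: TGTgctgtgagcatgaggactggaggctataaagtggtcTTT
pool 1, largest, TRBV17 TRBJ2-5: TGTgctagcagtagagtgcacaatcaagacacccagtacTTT
pool 1, second, 102 cells, TRAV7-4 TRAJ18: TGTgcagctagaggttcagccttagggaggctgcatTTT
pool 1, second, TRBV31 TRBJ2-3: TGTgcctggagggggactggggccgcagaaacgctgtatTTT
pool 1, the pair with 1 alpha chain, 65 and 36 cells, TRAV14-1 TRAJ49: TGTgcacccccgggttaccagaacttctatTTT
pool 1, the 65-cell beta chain, TRBJ2-1: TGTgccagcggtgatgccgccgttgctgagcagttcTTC
pool 1, the 36-cell beta chain, TRBV19 TRBJ1-2: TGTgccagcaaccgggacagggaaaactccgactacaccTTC
pool 1, the Lgals3-high clonotype, 21 cells, TRAV8D-1 TRAJ40: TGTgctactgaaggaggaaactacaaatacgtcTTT
pool 1, the Lgals3-high clonotype, TRBV19 TRBJ2-1: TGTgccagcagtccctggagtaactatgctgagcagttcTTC

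The largest clonotype, 15.1% of the Cd8 cells of fusion pool 2, had the highest Osgin1 level of all, 575 CPM, with Chn2 at 304 CPM and Litaf at 229 CPM. Its Maf level of 32.5 CPM was near that of all Cd8 cells of the pool (34.9 CPM) and below the median of the pool's 13 clonotypes (135 CPM). It held 10.2% of the pool's Cd8 Maf UMIs against 62.7% of those of Osgin1. Inside it, Osgin1 was also taken by checkpoint transcripts. The 853 cells with Pdcd1 and Lag3 UMIs had 575 CPM (interval 555 to 597), the 217 cells with either had 581 CPM (538 to 626) and the 16 cells with neither had 413 CPM (270 to 605). Those intervals overlapped, and Cd8 cells with neither transcript stood at 6.2 CPM in the pool as a whole. The 16 cells held only 26 Osgin1 UMIs, at a median of 4417 UMIs per cell against 5932 in the 853 cells. Their interval is too wide to show that the level stayed the same, and the part of uncaptured checkpoint RNA was not tested.

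The largest clonotype of fusion pool 1, 1.64% of its Cd8 cells, held 30.2% of its Cd8 Osgin1 UMIs. It had 284 CPM of Osgin1, 243 CPM of Chn2 and 107 CPM of Maf. The second clonotype of that pool had the reverse order, with 366 CPM of Maf, the highest among Cd8 clonotypes, and 84.4 CPM of Osgin1. The clonotypes with a shared alpha chain and different beta chains were alike: 0% of their cells had both Pdcd1 and Lag3, Maf had 0 UMIs in each (upper limits 9.99 and 19.8 CPM), and Osgin1 stood at 8.12 and 5.37 CPM. These traits were not particular to the shared chain. Pool 1 clonotypes with TRAV7-6 (62 cells) and TRAV12D-3 (22 cells) also had 0% of such cells and 0 Maf UMIs, with Osgin1 at 9.38 and 0 CPM.

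Over the 25 fusion Cd8 clonotypes with at least 20 cells, Lgals3 had the widest spread, from 5.22 CPM through a median of 168 CPM to 1930 CPM, and 73.3% of 300 clonotype pairs had 95% Poisson intervals that did not overlap. Maf (0 to 366 CPM, median 107 CPM, 68.0% of pairs) and Osgin1 (0 to 575 CPM, median 79.2 CPM, 67.3%) followed. Chn2 (55.0% of pairs), Litaf (50%) and Fgl2 (42.0%) lay between. Casp1 (17.7%) and Osbpl3 (37.9 to 151 CPM, 9.67%) were the most even. The order depended on the size limit: among the 11 clonotypes with at least 50 cells, Osgin1 and Maf (81.8% of 55 pairs each) and Chn2 (76.4%) were above Lgals3 (70.9%), whose highest level was 326 CPM there. The share depends on UMI numbers as well as on spread, since clonotypes with few UMIs have wide intervals.

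The Lgals3 extreme was a clonotype of 21 cells in fusion pool 1. All 21 cells had Lgals3 UMIs, 234 in all and at most 29 in a cell, and 0 cells had 5 or more UMIs of the myeloid genes Lyz2, S100a8, S100a9 and Csf1r. Its Osgin1 count was 0 (upper limit 30.4 CPM). At the other end, a clonotype of 166 cells in fusion pool 2 had Lgals3 at 5.22 CPM, with UMIs in 4 cells. The largest clonotype of pool 2 had 73.8 CPM of Lgals3, and the largest of pool 1 had 326 CPM.

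The clonotypes fell apart by checkpoint share. In 16 clonotypes of 2032 cells, 51.5% to 90.3% of cells had both Pdcd1 and Lag3, and in 9 clonotypes of 452 cells 0% to 19.0% had both. The members were chosen along this axis, so the values are a description, and the limits of 50% and 20% were set after seeing the shares. Osgin1 had a median of 209 CPM (19.5 to 575) in the first and 5.37 CPM (0 to 45.7) in the second. Litaf was the only gene of the 8 whose ranges did not overlap, with 95.04 to 279 CPM and 8.07 to 78.5 CPM. Lgals3 had medians of 120 CPM and 297 CPM, but its Spearman correlation with the share was only -0.154 (-0.261 in pool 1, -0.019 in pool 2). The pools contributed unequally to the sets, and in fusion pool 2 clonotypes of low share had 5.22 and 670 CPM of Lgals3. By cells it was higher with the checkpoint transcripts, at a fusion mean of 165 CPM with both and 34.2 CPM with neither. Casp1 (87.0 and 67.3 CPM) and Osbpl3 (84.5 and 65.1 CPM) were near each other in both.

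**Figure D5:**
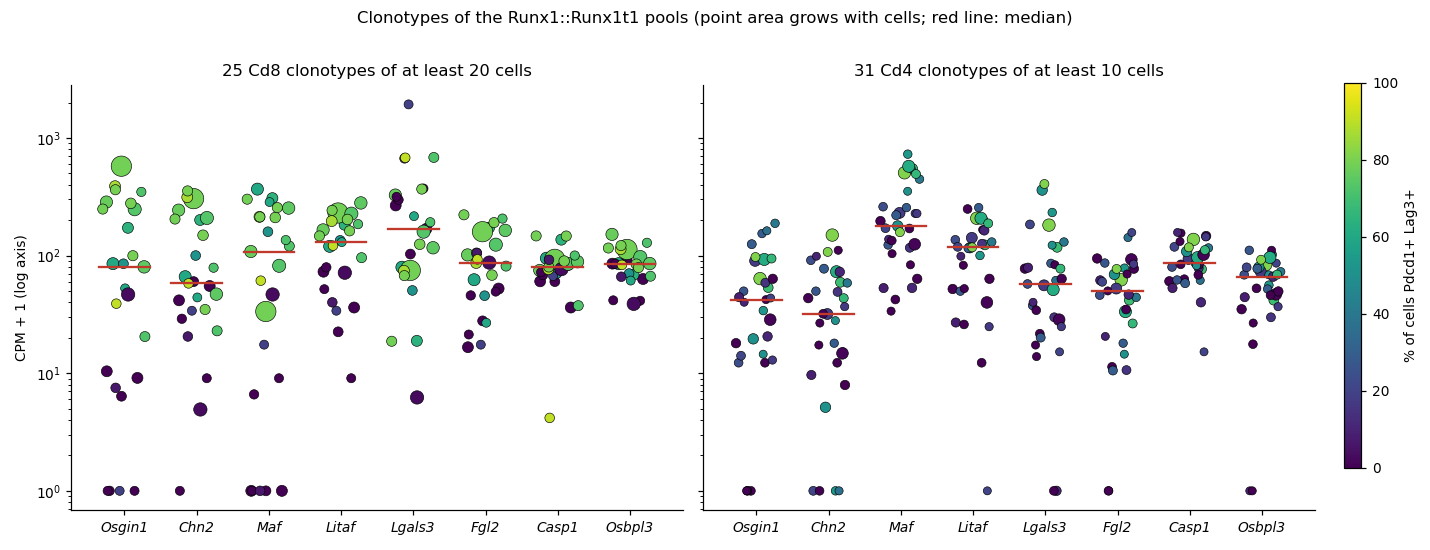
Level of each gene (CPM + 1, log axis) in 25 Cd8 and 31 Cd4 clonotypes of the fusion pools, with 1 point per clonotype, its area growing with the number of cells, colour for the share of Pdcd1+ Lag3+ cells and a red line at the median. In Cd8 clonotypes Litaf splits by colour without overlap (95.04 to 279 against 8.07 to 78.5 CPM), and Lgals3 reaches 1930 CPM in a clonotype of low share.

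Across these 25 clonotypes, Osgin1 varied with Chn2, with a Spearman correlation of 0.847 in both pools, 0.911 in pool 1 (12 clonotypes) and 0.857 in pool 2 (13 clonotypes). Its correlation with Litaf was 0.870 (0.819 and 0.676 within pools), and that with Lgals3 -0.538 (-0.577 and -0.544). With Maf the rank correlation of 0.632 had within-pool values of 0.632 and 0.291, and the Pearson value was 0.298. The genes were chosen together for high levels in Pdcd1- and Lag3-bearing Cd8 cells, and such a choice favours positive correlations among them here. Osgin1, Chn2 and Litaf each went with the Pdcd1+ Lag3+ share of the clonotypes (Spearman 0.775, 0.638 and 0.779). The clonotypes of a pool share mice and a library, differ in depth, and were not tested.

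In Cd4 cells, 31 fusion clonotypes with at least 10 cells held 883 cells. Maf spread most, from 32.7 to 728 CPM with a median of 178 CPM, and 45.6% of 465 pairs had intervals that did not overlap. For Osgin1 (0 to 187 CPM, median 41.3 CPM) this share was 17.8%, and for Casp1 (1.29%) and Osbpl3 (1.08%) it was lowest. The largest Cd4 clonotypes of the fusion pools are printed because both stood far above the Maf median.
Cd4 pool 1, 121 cells, TRAV14-2 TRAJ9: TGTgcagcagtgggctacaaacttaccTTC
Cd4 pool 1, TRBV10 TRBJ1-1: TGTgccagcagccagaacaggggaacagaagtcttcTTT
Cd4 pool 2, 104 cells, TRAV19 TRAJ57: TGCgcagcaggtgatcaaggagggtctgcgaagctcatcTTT
Cd4 pool 2, TRBV3 TRBJ1-2: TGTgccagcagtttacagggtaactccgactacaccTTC

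The first of these had 505 CPM of Maf, 148 CPM of Chn2, the highest of the Cd4 clonotypes, and 207 CPM of Litaf, and 81.0% of its cells had Pdcd1 and Lag3. The second had 574 CPM of Maf. The next clonotype of pool 2, with 87 cells of which 1.1% had both checkpoint transcripts, had 124 CPM of Maf and 39.0 CPM of Litaf. High Maf clonotypes were not limited to the fusion group, since control pool 1 held one of 30 cells at 376 CPM and one of 10 cells at 789 CPM. In Cd4 clonotypes Osgin1 and Chn2 had a rank correlation of 0.287, with 0.006 in pool 1 and 0.618 in pool 2, so the close Cd8 relation was not found in both Cd4 pools.

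The genes most like each member over 28 sums (7 gates in 4 pools, 12390 genes, Pearson correlation of log2(CPM + 1)) differed from member to member. Osgin1 was nearest to the ectonucleotidase gene Entpd1 (0.860), Abr (0.817) and Cd38 (0.805). Chn2 was nearest to Arsb (0.917), Maf to Ttc39c (0.954) and Litaf to Elmo2 (0.778). Lgals3 was nearest to Ifi30 (0.931), a lysosomal reductase of antigen-presenting cells. Fgl2 was nearest to Frmd4b (0.873), Casp1 to its neighbour in the caspase family Casp4 (0.921), and Osbpl3 to Slc52a3 (0.899). Among the members themselves the highest values were those of Fgl2 with Osbpl3 (0.823) and Maf with Osbpl3 (0.777). The sums of a pool share its library, and these values are a description.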

How the data were processed

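Bone marrow T cells of 4 pools were sequenced as 4 gene expression and 4 T cell receptor libraries (10x Genomics 5′ kit). The authors deposited filtered gene-by-cell matrices of UMI counts made with Cell Ranger 6.1.2 on GRCm38, per the labels and the study's methods, and receptor contig tables with UMI and read counts and a clonotype per cell. The annotation release is not given in the sources used here, and coordinates come from GENCODE vM21.

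Barcodes with fewer than 200 genes, or with over 15% of UMIs from mitochondrial genes, were dropped. Scrublet removed doublets by its automatic threshold in fusion pool 2 (4.70%) and control pool 2 (6.97%). In fusion pool 1 and control pool 1 that threshold marked under 0.5% of cells, so the top 5% of scores were removed. Total UMIs per library were 90958101 to 102883449.

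T cell gates used at least 1 UMI of Cd3d, Cd3e or Cd3g and the presence or absence of Cd4, Cd8a, Cd8b1, Foxp3 and Klrb1c. The Kit Cd34 gate did not require a Cd3 UMI. Counts were summed per pool and gate and tested in edgeR 4.0.16 (R 4.3.3; TMM, filterByExpr, quasi-likelihood), with limma 3.58.1. Comparisons between gates of the same pool and the interaction had the pool as a block. Python 3.11.15, numpy 2.4.6, scipy 1.17.1, pandas 2.3.3 and scanpy 1.11.5 gave levels, exact Poisson intervals (95%, counting error only) and correlations. Alternatives were DESeq2 1.42.0, no filter, at least 2 UMIs per gate gene, 1 cell per clonotype, the replicate block and leaving out each pool. The fits were tested on simulated data. The 8 genes and the lists were chosen with earlier results of these data known. List genes were named by rule, the 2 with the largest change among those called and changed the same way in every pool. For likeness the 3 genes of highest correlation were taken.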

Additional observations from a re-analysis of the deposited data

Results flagged for a closer look

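The group effect on Lgals3 differed between the Foxp3 classes of Cd4 cells by the interaction test, with -1.12 on the log2 scale for Foxp3+ relative to Foxp3- cells (edgeR adjusted p = 0.0133). The fusion pools had 87.4 and 93.5 CPM in Foxp3- and 70.4 and 48.0 CPM in Foxp3+ cells, and the controls 35.7 and 91.0 CPM and 50.3 and 131 CPM. In each control pool the Foxp3+ cells were the higher, and in each fusion pool the lower. The call was kept in 4 of 10 other settings.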

How the results depend on the processing

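Comparing each gene with its value under each alternative setting, leaving out those added later, 539 such values kept direction and side of the threshold, 49 gained the call, 25 lost it and 27 changed direction. The p-values rest on 2 pools per group, and low counts limit the Kit Cd34 cells and small clonotypes. The cause of each change below was not tested, except that fewer genes, cells or pools enter some fits by construction.

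Counts of members called moved as follows. In Cd4 Foxp3- cells 3 became 5 with no filter on low counts and 0 in Nkg7/Ccl5-low cells. In Cd4 Foxp3+ cells 0 became 1 with DESeq2 and 0 to 2 with a pool left out. In Klrb1c+ cells 4 became 1 in invariant receptor cells. In Klrb1c- cells 5 became 3 to 6 with a pool left out, the lowest without control pool 1. For the interaction 1 became 0 with DESeq2, stricter gates or 1 cell per clonotype, 5 with no filter and 0 to 3 with a pool left out. Genes called over all settings ranged from 104 to 988 (324 as reported) in Cd4 Foxp3- cells, 7 to 316 (10) in Foxp3+ cells, 195 to 780 (304) in Klrb1c+ cells and 536 to 1918 (963) in Klrb1c- cells. Within pools they ranged from 1377 to 2751 (2165) between Foxp3 classes, 804 to 1861 (1342) between Nkg7/Ccl5 classes and 1968 to 3908 (3166) between Klrb1c classes, and for the interaction from 2 to 403 (169).

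The replicate numbers of the groups share only a label, and same-numbered pools deviated together with correlations of 0.145 to 0.186. With the replicate block the members called were 4 in Cd4 Foxp3- cells, 1 in Foxp3+ cells, 6 in Klrb1c+ cells and 7 in Klrb1c- cells. With no replicate block they were 2 between Foxp3 classes, 6 between Nkg7/Ccl5 classes, 5 between Klrb1c classes and 0 for the interaction. These counts stand without the share of all genes called under the same setting. The ranges above show that the number of genes called varied with the setting, so the counts are not a result about the members.

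Direction changed mostly for values near 0. With a pool left out, Lgals3 in Cd4 Foxp3- cells ran from -0.0057 to 1.42. In Foxp3+ cells Osgin1 ran from -0.090 to 0.54, Chn2 from -0.43 to 0.38, Maf from -0.019 to 0.16, Lgals3 from -1.13 to 0.28, Casp1 from -0.35 to 0.18 and Osbpl3 from -0.19 to 0.54. Chn2 there was also 0.071 with stricter gates and 0.11 with 1 cell per clonotype. Casp1 in Klrb1c+ cells ran from -0.10 to 0.70, and Chn2 in Klrb1c- cells from -0.10 to 0.17. Between Foxp3 classes Osgin1 ran from -0.033 to 0.049, was -0.0043 with no filter and -0.071 with stricter gates, and Lgals3 ran from -0.46 to 0.12. Between Klrb1c classes Osbpl3 ran from -0.11 to 0.19 and was -0.013 with DESeq2 and -0.021 with no replicate block. In the interaction Osgin1 ran from -0.28 to 0.17 and Chn2 from -0.97 to 0.11.

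In settings chosen after seeing the data, Osgin1 was -0.040 and Fgl2 -0.078 in Nkg7/Ccl5-high cells, and Osgin1 -0.44, Maf -0.36 and Casp1 -0.24 in low cells. Osbpl3 was 0.092 in invariant receptor cells. In Klrb1c- cells with a paired receptor Chn2 was -0.089 and Lgals3 0.15, and without Foxp3-bearing cells Lgals3 was 0.51. Lgals3 was 0.21 in Klrb1c- cells under 5 myeloid UMIs, where Fgl2 gained the call (0.92, adjusted p = 0.0475). Unthinned co-detection medians in Cd4 Foxp3- cells were 1.41 and 1.44. Among Cd8 clonotypes of at least 50 cells, 81.8% of pairs were apart for Osgin1 and for Maf, 76.4% for Chn2, 70.9% for Lgals3, 60% for Litaf, 54.5% for Fgl2, 30.9% for Osbpl3 and 12.7% for Casp1, so Lgals3 was no longer first and Casp1 was last in place of Osbpl3.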

Other observations

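Cells outside all gates (no Cd3 UMI, or both co-receptors) numbered 1202 and 1269 in the fusion pools and 852 and 876 in the controls. They had 161 and 171 CPM of Lgals3 in the fusion pools and 943 and 584 CPM in the controls. Those with at least 5 UMIs over Lyz2, S100a8, S100a9 and Csf1r, 17 and 18 against 188 and 101 cells, had 2269 and 1807 CPM against 1723 and 1694 CPM of Lgals3. The remaining ones had 94.1 and 111 CPM against 97.4 and 114 CPM, so that the groups overlapped.

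Foxp3+ Cd4 cells were split in the same way as the Foxp3- ones. In those with at least 3 UMIs over Nkg7 and Ccl5, Fgl2 was at 138 and 197 CPM in the fusion pools and 72.6 and 101 CPM in the controls. In the Nkg7/Ccl5-low ones its mean over pools was lower, at 74.9 CPM in the fusion group and 22.2 CPM in the controls. No test was run on this split.

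The 3 control clonotypes of at least 20 Cd8 cells, all in control pool 2, had 24, 22 and 22 cells, none with both Pdcd1 and Lag3. Their Osgin1 levels were 0, 19.4 and 7.15 CPM, their Chn2 levels 7.57, 87.1 and 0 CPM, and their Maf levels 30.3, 9.68 and 14.3 CPM.

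Some fusion Cd8 clonotypes with a checkpoint share of at least 50% had little Osgin1. Clonotypes of 40 and 31 cells in fusion pool 2 had 19.5 and 38.0 CPM of Osgin1 with 682 and 678 CPM of Lgals3, beside a clonotype of 62 cells in the same pool with 388 CPM of Osgin1.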
